A study of Mus musculus with 8 samples.

Results

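The transcripts described here belong to the circadian clock of the heart. They are 10 of the 17190 genes in a gene count table, taken by their symbols: 2 activators (Arntl and Npas2), 6 repressors (Nr1d1, Nr1d2, Per1, Per2, Per3 and Ciart) and 2 clock outputs (Dbp and Tef). The table comes from hearts of male mice fed standard chow and kept in a 12-hour light/dark cycle, 4 wild-type hearts, numbered 2, 4, 5 and 6, and 4 Gpihbp1-/- hearts, numbered 1, 2, 3 and 4. The knockout lacks Gpihbp1, the protein of capillary endothelium that carries lipoprotein lipase to the vessel lumen, and the study asked what its loss does to the heart. The labels give no age, strain, litter or batch, and no hour of dissection for any heart, so the hour could not enter the fit. Where nothing says that hearts came from separate litters or days, p-values measure only the spread between these 8 samples.

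The clock is a feedback loop of transcription. ARNTL (also called BMAL1) pairs with CLOCK or with its relative NPAS2, binds E-box sequences and switches on the Per, Nr1d, Ciart, Dbp and Tef genes. The PER proteins, together with the cryptochromes, and CIART then hold the activators back, while the nuclear receptors NR1D1 and NR1D2 (REV-ERB alpha and beta) repress Arntl and Npas2 through another element, the RORE. DBP and TEF are leucine-zipper factors that pass the rhythm on to genes with a D-box. In tissues of mice kept in light and dark, Arntl and Npas2 peak at nearly the opposite time of day to Dbp, Nr1d1 and the Per genes, and the heart keeps such a rhythm in its own cells.

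The sides of the loop that the values compare were taken from gene function, not from promoter matches. The promoter sequences below are shown because the loop acts through E-box, RORE and D-box elements. They are RefSeq's, on GRCm38.p6, and cover the 250 bases before each start site, 5′ to 3′ on the gene's strand, with matches in capitals. Windows of 250 bases before to 50 bases after the start were at hand for 9 of the 10 genes (12 windows, since Arntl, Per1 and Tef have 2 starts each), and not for Per2. Both strands were searched for the E-box CACGTG, the variant E-box CACGTT, the D-box TTANGTAA, the RORE core TAGGTCA and the cAMP element TGACGTCA. No match in these windows overlapped another. Ciart, at chr3:95882229-95882478 on the minus strand, held 3 E-boxes, which began 116, 58 and 44 bases before the start. Per1, at chr11:69098699-69098948 on the plus strand, held 1 E-box, and Tef held 1 at each start, of which the one at chr15:81811164-81811413 on the plus strand is shown. Per3, at chr4:151044666-151044915 on the minus strand, held 2 D-boxes, and Nr1d1, at chr11:98775378-98775627 on the minus strand, held 1 variant E-box, read here from the other strand. The RORE core lay 30 bases after the second start of Arntl, and the 30 bases around it, at chr7:113207529-113207558 on the plus strand, are given.
Ciart: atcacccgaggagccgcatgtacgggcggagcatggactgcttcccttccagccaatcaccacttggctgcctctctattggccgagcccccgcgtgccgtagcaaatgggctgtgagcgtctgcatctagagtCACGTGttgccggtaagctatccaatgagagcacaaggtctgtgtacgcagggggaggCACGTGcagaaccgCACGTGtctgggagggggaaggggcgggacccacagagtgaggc
Per1: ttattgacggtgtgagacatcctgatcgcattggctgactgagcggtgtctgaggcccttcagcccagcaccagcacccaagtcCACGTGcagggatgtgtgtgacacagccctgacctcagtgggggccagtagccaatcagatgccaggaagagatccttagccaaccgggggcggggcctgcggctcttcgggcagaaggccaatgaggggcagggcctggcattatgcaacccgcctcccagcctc
Tef: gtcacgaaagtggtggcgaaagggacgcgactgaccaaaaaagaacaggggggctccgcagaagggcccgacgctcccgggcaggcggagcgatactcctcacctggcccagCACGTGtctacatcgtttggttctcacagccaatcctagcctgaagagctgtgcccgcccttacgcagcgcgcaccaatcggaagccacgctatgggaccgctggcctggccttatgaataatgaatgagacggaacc
Per3: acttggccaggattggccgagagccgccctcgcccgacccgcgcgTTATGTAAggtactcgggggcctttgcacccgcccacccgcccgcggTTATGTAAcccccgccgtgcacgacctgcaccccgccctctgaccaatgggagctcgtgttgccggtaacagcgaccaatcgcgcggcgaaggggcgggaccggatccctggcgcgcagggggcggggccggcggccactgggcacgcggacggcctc
Nr1d1: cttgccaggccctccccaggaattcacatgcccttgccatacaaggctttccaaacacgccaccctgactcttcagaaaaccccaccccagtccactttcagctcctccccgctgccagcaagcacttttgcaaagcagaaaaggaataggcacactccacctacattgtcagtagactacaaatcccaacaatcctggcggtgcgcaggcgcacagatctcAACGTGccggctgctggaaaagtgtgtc
Arntl: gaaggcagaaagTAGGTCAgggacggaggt
Of all 32851 windows of this length, 7.15% held CACGTG, 4.68% held CACGTT, 2.32% held TTANGTAA, 2.61% held TAGGTCA and 1.79% held TGACGTCA. Among the 12 windows of the clock genes, 4 held CACGTG, 1 each held CACGTT, TTANGTAA and TAGGTCA, and 0 held TGACGTCA. The windows of Nr1d2, Npas2 and Dbp held none of the patterns, which says only that those letters are not in that stretch.

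Library totals ran from 9065553 to 13492957 counts. The deleted gene, Gpihbp1, gave 1108, 1951, 833 and 1783 counts in the wild-type hearts, in the order of their numbers, and 0, 0, 1 and 0 in the knockout hearts, so every library matched its label. Cardiomyocyte markers were high in all libraries (6 of 6 listed, summed level from 22461 to 57091 CPM, counts scaled to library size). The 5 adipocyte markers summed to at most 2.66. Wild-type 2 and knockout 2 stood apart. Their 8 fibroblast and matrix markers summed to 10032 and 13676 CPM, against 285 to 596 in the other 6 hearts, and their 7 macrophage markers to 4200 and 2944, against 395 to 616. Their sums of the cardiomyocyte markers, 23435 and 22461, were the lowest of the 8, where the others had 47351 to 57091. Wild-type 6 had the highest erythroid sum, 8310 against 1614 or less, and a scaling factor of 0.678 where the other libraries had 0.964 to 1.16. The 5 atrial markers summed to 3335, 3396 and 5065 CPM in wild-type 2, wild-type 6 and knockout 2. The other 5 hearts had 158 to 290. In wild-type 2 and knockout 2 the sum was nearly all Nppa, at 3132 and 4467 CPM (scaled also by the TMM method). Myl4, an atrial myosin light chain, had only 2.37 and 1.97 CPM there. In wild-type 6 Myl4 had 974 CPM beside 3262 of Nppa, and it had at most 2.45 elsewhere. The 6 endothelial markers were highest in wild-type 4 and knockout 1, at 3710 and 2659 CPM, against 1007 to 1523 in the others. Wild-type 4 had the highest Arntl of the 8 hearts and knockout 1 the highest Dbp and Ciart, and the part of cell content in these levels was not tested. In whole hearts, fewer cells of a type and less RNA per cell cannot be told apart.

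The activators were lower in the knockout hearts and the repressors and outputs higher, on average, but the groups overlapped for all 10 genes. The genes were chosen by their function and selected on this very contrast, the log2 fold changes between the genotypes being known, so their differences are given as a description. Both activators had a negative and all 8 repressors and outputs a positive log2 fold change (knockout over wild type), where 52.9% of the 12826 tested genes were negative and 47.1% positive. In edgeR's quasi-likelihood test 0 of the 10 had an adjusted p under 0.05, where 0.0312% of tested genes did. At an unadjusted p under 0.05 there were 2, Arntl and Ciart, against 0.904% of tested genes, and DESeq2 called 0. Groups that did not overlap were found for 0 of the 10 and for 0.632% of tested genes. The median log2 fold change was -0.87 over the activators and 0.67 over the repressors and outputs, beside -0.019 over all tested genes.

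**Figure D1:**
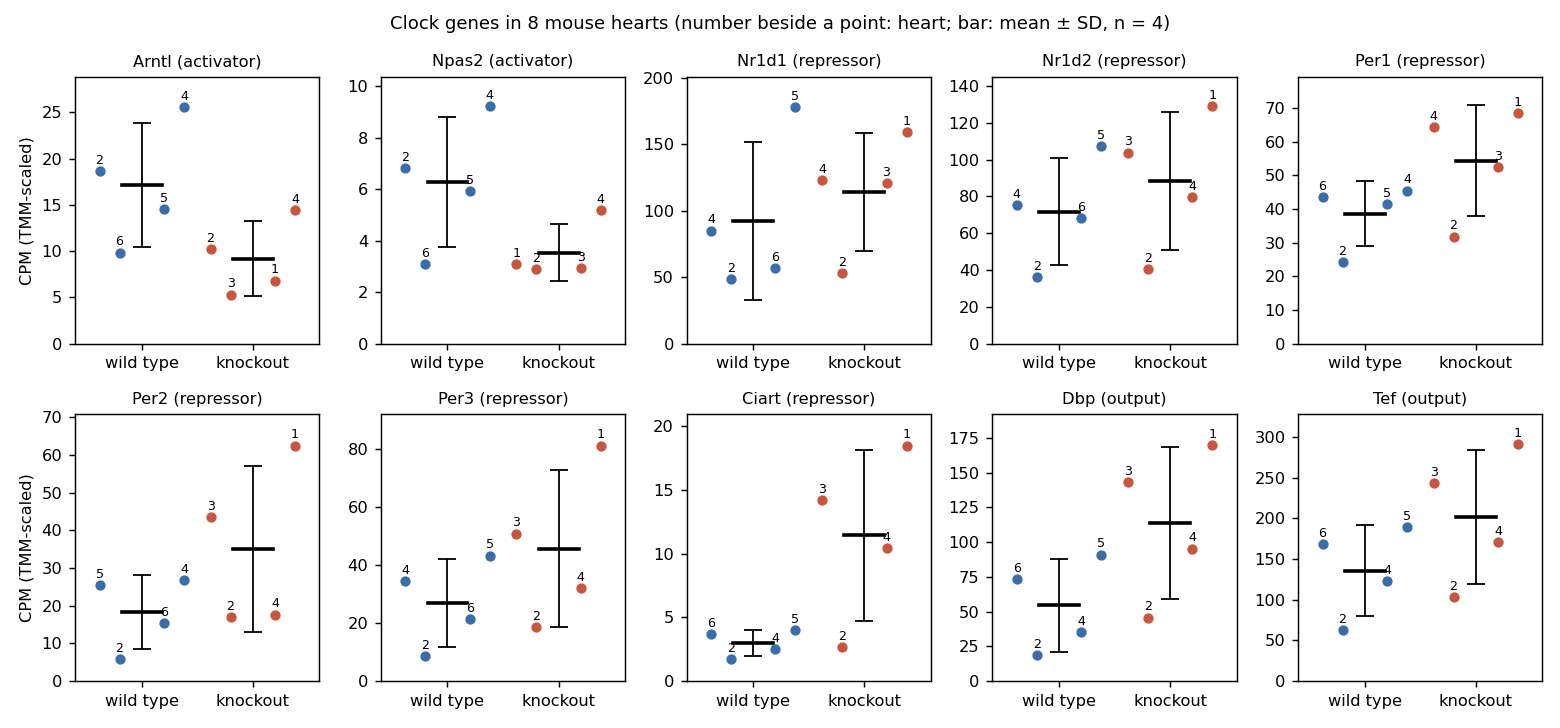
Level of each clock gene in CPM (counts scaled to library size by TMM) in 4 wild-type and 4 knockout hearts; each point is 1 heart with its number, and bars are the mean ± SD. Ciart lies between 10.5 and 18.5 CPM in knockout hearts 1, 3 and 4, above every wild-type heart, while knockout 2, at 2.63, lies among the wild-type hearts.

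Arntl (NCBI gene 11865), the activator that every E-box-driven arm of the clock needs, stood at 18.7, 25.6, 14.5 and 9.84 CPM (here scaled also by the TMM method) in wild-type 2, 4, 5 and 6. In knockout 1, 2, 3 and 4 it stood at 6.81, 10.2, 5.29 and 14.4 CPM. Knockout 3 and 1 were the lowest of the 8 hearts and wild-type 4 the highest, and wild-type 6 lay inside the knockout range. The log2 fold change was -0.90 (SE 0.39, 95% interval from -1.77 to -0.034), from 17.1 ± 6.67 to 9.19 ± 4.05 CPM (SD, n = 4 each). Npas2 (NCBI gene 18143), the partner that can take the place of CLOCK, was read at 6.83, 9.22, 5.94 and 3.09 CPM in hearts 2, 4, 5 and 6 of the wild type and at 3.10, 2.89, 2.94 and 5.18 CPM in hearts 1, 2, 3 and 4 of the knockout. The order resembled that of Arntl in that wild-type 4 was highest and wild-type 6 again lay inside the knockout range. Its log2 fold change was -0.83 (SE 0.38, interval from -1.70 to 0.029), and it rested on 22 to 98 reads per library.

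Ciart (NCBI gene 229599), whose product binds ARNTL and represses it, showed the widest distance between the means of the 10 genes. In wild-type 2, 4, 5 and 6 its reads numbered 25, 26, 46 and 26, which is 1.74, 2.47, 4.02 and 3.65 CPM. In knockout 1, 2, 3 and 4 it had 209, 40, 145 and 111 reads, or 18.5, 2.63, 14.2 and 10.5 CPM. Knockout 2 alone fell into the wild-type range, and it was one of the hearts with high matrix and macrophage markers. The log2 fold change was 1.95 (SE 0.55, interval from 0.71 to 3.19), a 3.85-fold difference, and the edgeR adjusted p was 0.99998 over all genes. Without wild-type 2 and knockout 2 the groups of 3 did not overlap, and the log2 fold change was 2.09 (SE 0.33, edgeR adjusted p = 0.269). Ciart is also the gene whose promoter, printed above, held 3 E-boxes. A link between the number of E-boxes and the fold change was not tested.

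The Per genes encode the repressors that return to the nucleus and block the activators. Per2 (NCBI gene 18627) stood at 5.78, 26.8, 25.4 and 15.3 CPM in hearts 2, 4, 5 and 6 of the wild type and at 62.4, 16.9, 43.5 and 17.6 CPM in hearts 1, 2, 3 and 4 of the knockout. Knockout 1 and 3 lay above all wild-type hearts, while knockout 2 and 4 lay inside the wild-type range. Its log2 fold change was 0.94 (SE 0.55), and 0.50 without knockout 1. Per3 (NCBI gene 18628) followed the same pattern, with 8.43, 34.5, 43.2 and 21.2 CPM in wild-type and 81.2, 18.5, 50.8 and 32.0 CPM in knockout hearts, in the same order, and a log2 fold change of 0.76 (SE 0.55), which was 0.33 without knockout 1 and 0.47 without wild-type 2. Per1 (NCBI gene 18626), the Per gene that also answers to hormones and other acute signals, varied least, by 1.88 times between the lowest and highest wild-type heart against 4.64 times for Per2 and 5.13 times for Per3. It stood at 24.2, 45.4, 41.3 and 43.6 CPM in wild-type hearts and at 68.5, 31.8, 52.5 and 64.3 CPM in knockout hearts. Knockout 1, 3 and 4 were above the wild-type hearts and knockout 2 was not. The log2 fold change of Per1 was 0.49 (SE 0.30), and 0.32 without wild-type 2.

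The Nr1d genes had the smallest log2 fold changes of the 10. Nr1d1 (NCBI gene 217166) stood at 48.3, 85.1, 178 and 56.5 CPM in hearts 2, 4, 5 and 6 of the wild type and at 159, 53.3, 121 and 123 CPM in hearts 1, 2, 3 and 4 of the knockout. The highest heart of all was wild-type 5. The log2 fold change was 0.31 (SE 0.47), and without 1 heart it ran from 0.10 (without wild-type 2) to 0.85 (without wild-type 5). Leaving out knockout 1 gave 0.11, leaving out wild-type 6 gave 0.12, and leaving out knockout 2 gave 0.55. Nr1d2 (NCBI gene 353187) stood at 36.2, 75.3, 107 and 68.2 CPM in wild-type hearts and at 129, 40.6, 104 and 79.5 CPM in knockout hearts, with a log2 fold change of 0.30 (SE 0.41). Its lowest hearts were wild-type 2 and knockout 2. For Nr1d2 the value was 0.059 without knockout 1, 0.081 without wild-type 2, 0.56 without wild-type 5 and 0.54 without knockout 2. Nr1d1 overlaps Thra, a thyroid hormone receptor gene on the opposite strand, and the sources used here do not say whether the counting used strand. Thra itself had 897, 1171, 1563 and 515 counts in the wild-type hearts and 1137, 911, 1038 and 1161 in the knockout hearts, so Nr1d1 reads are uncertain to the extent that the shared end was divided.

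Dbp (NCBI gene 13170), the output gene that swings most over the day in many tissues, stood at 18.6, 35.4, 91.1 and 73.1 CPM in wild-type 2, 4, 5 and 6. The knockout hearts 1, 2, 3 and 4 had 170, 45.6, 143 and 95.3 CPM. All knockout hearts but knockout 2 lay above every wild-type heart. The means were 54.5 ± 33.4 and 113 ± 54.7 CPM (SD, n = 4 each), and the log2 fold change was 1.06 (SE 0.54, interval from -0.15 to 2.27). Tef (NCBI gene 21685), its relative, had 62.2, 123, 189 and 169 CPM in wild-type and 291, 103, 243 and 171 CPM in knockout hearts, in the same order, with a log2 fold change of 0.57 (SE 0.42), which was 0.34 when either wild-type 2 or knockout 1 was left out. Knockout 1 and 3 were above all wild-type hearts, and knockout 4 and 2 were not. Dbp overlaps Sphk2, a lipid kinase gene, in the RefSeq table, and Sphk2 had 559, 338, 384 and 281 counts in wild-type hearts and 321, 642, 348 and 383 in knockout hearts. Its highest heart was knockout 2, where Dbp was the lowest of its group.

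Without wild-type 2 and knockout 2, Ciart, Dbp and Per1, 3 of the 10, were higher in every knockout heart than in every wild-type heart. Over all tested genes 2.27% were higher and 2.45% lower in that sense. For these 3 genes knockout 2 was the only knockout heart inside the wild-type range, so leaving it out fixed this outcome in advance. The genes were also chosen on this contrast, and the count is a description only. Arntl and Npas2 still overlapped, with log2 fold changes of -0.92 and -0.72. Nr1d1 had 0.34 in this fit and 0.031 when wild-type 6 was left out as well. Apart from Ciart, the edgeR adjusted p in this fit was 0.999985 for each of the genes.

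**Figure D2:**
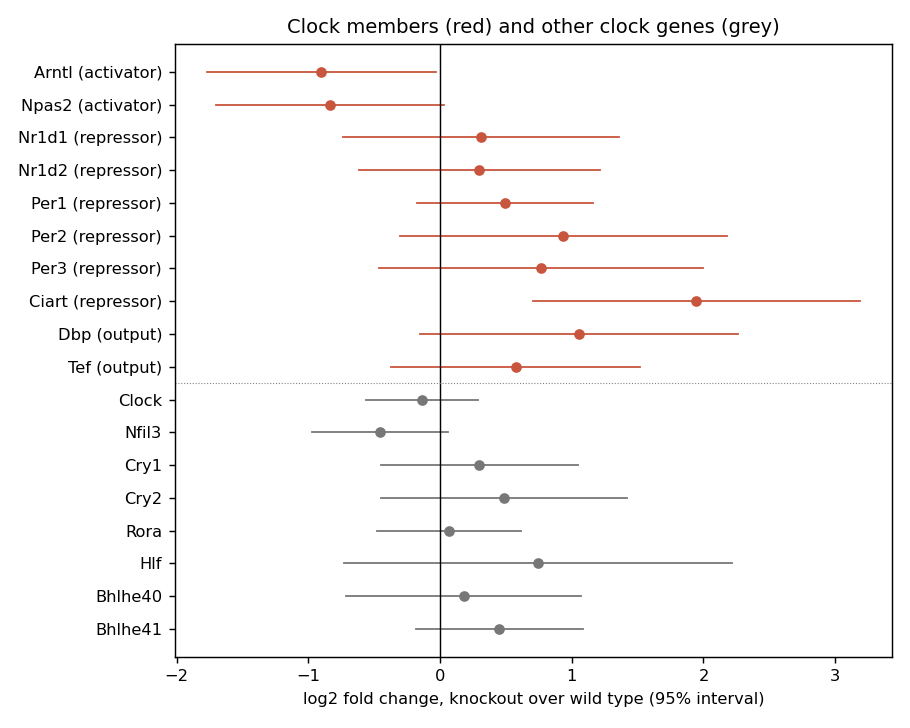
Log2 fold change of knockout over wild type with its 95% interval from edgeR's quasi-likelihood fit, for the 10 clock genes in red and 8 other clock genes in grey. The points of Arntl and Npas2, at -0.90 and -0.83, lie left of 0 and those of the 8 repressors and outputs between 0.30 and 1.95; the intervals of Arntl and Ciart alone among the 18 leave out 0.

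The levels of different genes were compared on the deposited TPM, which are per length. In the wild type Nr1d1 led with 45.6 ± 40.4 TPM, followed by Dbp at 43.3 ± 34.7, Tef at 38.3 ± 22.5 and Nr1d2 at 19.1 ± 12.6 (SD, n = 4). Per1 at 9.64, Arntl at 8.27, Per3 at 5.67, Per2 at 4.09, Ciart at 2.31 and Npas2 at 2.15 TPM came after them. No neighbours in this order differed by more than the larger of their SDs, which are between hearts. Heart by heart, Tef stood above Nr1d2, Nr1d2 above Per1 and Per3 above Per2 in every wild-type heart. The remaining steps did not hold in every wild-type heart. In the knockout the order was Dbp at 104 ± 46.6, Tef at 66.4 ± 25.0, Nr1d1 at 58.8 ± 21.3, Nr1d2 at 26.03 ± 10.3 and Per1 at 15.9 TPM, then Ciart at 11.03, Per3 at 10.4, Per2 at 8.42, Arntl at 4.78 and Npas2 at 1.30 TPM. The steps from Nr1d1 to Nr1d2 and from Arntl to Npas2 were larger than either SD, and the other 7 steps were not. Heart by heart, both of these steps held in every knockout heart. So did those from Dbp to Tef, Nr1d2 to Per1, Per1 to Ciart and Per3 to Per2, and the remaining steps did not. On the TPM scale Arntl stood above Ciart in each of the 4 wild-type hearts and below it in knockout 1, 3 and 4, but in knockout 2 it was above, at 5.85 against 2.84 TPM. The knockout means of this pair differed by less than the SD of Ciart, 6.43 TPM.

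A ratio of counts of a pair of genes within 1 library does not depend on how libraries are scaled, so the repressors and outputs were set against Arntl heart by heart. For each Arntl read, wild-type 2, 4, 5 and 6 held 0.996, 1.38, 6.27 and 7.38 reads of Dbp. The knockout hearts 1, 2, 3 and 4 held 24.8, 4.44, 26.9 and 6.60. Knockout 1 and 3 lay above all other hearts, while knockout 2 and 4 lay inside the wild-type range. On the log2 scale the mean was 1.498 ± 1.48 for wild-type and 3.56 ± 1.32 for knockout hearts, a difference of 2.06. Ciart had 0.0950, 0.0983, 0.279 and 0.376 reads per Arntl read in wild-type and 2.70, 0.259, 2.67 and 0.726 in knockout hearts, in the same order, with a difference of 2.61 in log2 means. Here knockout 2 alone lay inside the wild-type range. For the other 6 genes the difference in log2 means ran from 1.20 for Nr1d2 and 1.32 for Nr1d1 to 1.85 for Per2, and each of the 8 ratios overlapped between the genotypes.

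The hearts kept nearly the same order across these ratios, which share Arntl as their denominator. Wild-type 2 was lowest and wild-type 4 second lowest for 8 of 8 genes, and the highest and second highest were knockout 1 and knockout 3 for 8 of 8. Knockout 2 and 4 fell between them, beside wild-type 5 and 6. With Npas2 as the denominator the difference for Dbp was 1.92. Npas2 itself had a less variable ratio to Arntl, with log2 means of -1.46 ± 0.15 for wild-type and -1.31 ± 0.42 for knockout hearts.

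**Figure D3:**
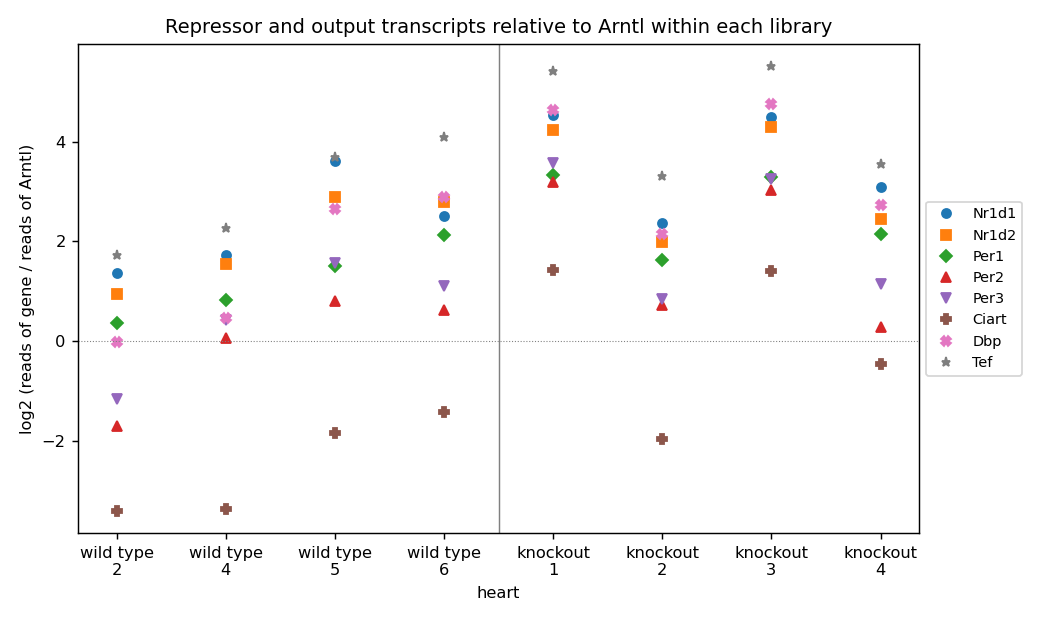
Log2 ratio of the reads of each repressor or output gene to the reads of Arntl in the same library, for 8 hearts. Every gene is lowest in wild-type 2, next in wild-type 4 and highest in knockout 1 or knockout 3, and the other 4 hearts mix between the genotypes.

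Variation within a genotype was not used to choose the genes, so it was examined apart from the contrast, as log2 CPM minus the mean of each genotype. The 8 repressors and outputs varied together: 28 of 28 pairs had a positive Pearson r over the 8 hearts, from 0.69 to 0.98 with a median of 0.85. Tef and Dbp formed the closest pair, at 0.98. Among 12431 other genes with a mean of at least 1 CPM, 49.7% had a positive r with Dbp. Large values were not rare among them. The lowest r of these repressors and outputs with Dbp, 0.77 for Per2, was above that of 91.4% of the 12431 genes. Wild-type 2 and knockout 2, the hearts with high matrix and macrophage markers, were the lowest of their group for each of these 8 genes. Without them 22 of 28 pairs were positive over 6 hearts, from -0.26 to 0.99 with a median of 0.57. Dbp kept an r of 0.94 with Tef and 0.94 with Ciart, while its r with Per1 moved from 0.79 to -0.26. The part of the changed cell content in these values was not tested.

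**Figure D4:**
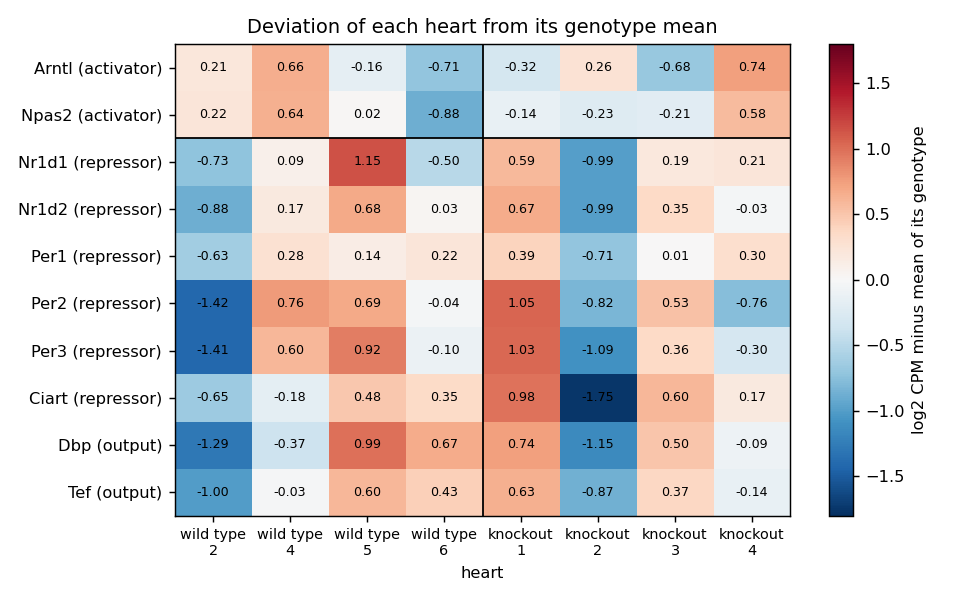
Deviation of each of 8 hearts from the mean of its own genotype, in log2 CPM, for the 10 clock genes; red is above and blue below that mean. The 8 repressors and outputs are below their mean in wild-type 2 and knockout 2, from -0.63 to -1.75, where Arntl is above it at 0.21 and 0.26.

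Of the 9 pairs of Arntl with another clock gene, the closest within genotype was that with Npas2. It had an r of 0.86 (Spearman's rho 0.74) over 8 hearts, with a two-sided exact permutation p of 0.00694 and 0.0625 after Benjamini-Hochberg adjustment over the 9 pairs, which missed the threshold. The exact p of its rho was 0.0521 (adjusted 0.469). Without wild-type 4 and knockout 3, the hearts farthest from the median of Arntl, this r was 0.86 over 6 hearts with an exact permutation p of 0.0833. Arntl had a negative r with each of the 8 repressors and outputs, the lowest with Dbp at -0.61 (rho -0.55, exact permutation p = 0.155 and 0.208, adjusted 0.573 and 0.469) and Tef at -0.56 (rho -0.60, exact permutation p = 0.191 and 0.170, adjusted 0.573 and 0.469). Without the same hearts they were -0.59 and -0.64. Among the 12431 other genes 51.1% had a positive r with Arntl. The 8 repressors and outputs varied together, so their signs do not count separately. For Nr1d1 and Per1 the r was -0.12 and -0.13, and the adjusted exact permutation p of the 8 pairs ran from 0.573 to 0.776. An opposite course of Arntl and its targets was therefore not detectable with both genotypes pooled around their own means. In the wild-type hearts alone r was positive for Nr1d1, Per2 and Per3 (0.057, 0.074 and 0.016) and negative for the others. In the knockout hearts alone it was negative for all 8, from -0.095 for Per1 to -0.83 for Per2. These r of 4 hearts were not tested. Within genotype, rearranging 4 and 4 hearts cannot give a p below 0.00174.

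The rest of the clock was examined with a list of 18 genes, of which 17 were tested (Fbxl21, a ubiquitin ligase subunit, was too low). In edgeR's quasi-likelihood test 0 of the 17 passed in either direction, against 0.0312% of tested genes, 0 had an unadjusted p under 0.05, and DESeq2 called 0. Their median log2 fold change was 0.18, with 13 positive and 4 negative, beside -0.019 over all tested genes. Clock, the usual partner of Arntl, had means of 36.2 ± 4.05 CPM (wild type) and 32.9 ± 4.63 CPM (knockout; SD, n = 4 each), its log2 fold change being -0.14 (interval from -0.56 to 0.29). Nfil3, a repressor that competes with DBP and TEF at D-boxes, had -0.46 (interval from -0.98 to 0.059), from 19.7 ± 2.15 to 14.4 ± 3.46 CPM. Hlf, the third member of the DBP family, had 0.74 (SE 0.66), and stood at 3.06, 8.17, 23.5 and 9.28 CPM in hearts 2, 4, 5 and 6 of the wild type and at 23.9, 4.40, 29.2 and 16.4 CPM in hearts 1, 2, 3 and 4 of the knockout. As with Dbp, wild-type 2 and knockout 2 were the lowest of their groups.

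Among the cryptochromes, the partners of the PER proteins, Cry2 had a log2 fold change of 0.48 (SE 0.42) and Cry1 0.30 with 0.33. Cry2 stood at 11.4, 22.2, 44.5 and 32.9 CPM in hearts 2, 4, 5 and 6 of the wild type and at 44.9, 20.5, 45.9 and 43.9 CPM in hearts 1, 2, 3 and 4 of the knockout, again lowest in wild-type 2 and knockout 2. The basic helix-loop-helix repressors Bhlhe40 and Bhlhe41 had 0.18 and 0.45, and Rora, an activator at the RORE, had 0.069 with an interval from -0.48 to 0.62. Within genotype, 11 of the 17 genes had a positive and 6 a negative r with Dbp over 8 hearts. It ran from -0.80 for the kinase gene Csnk1d to 0.96 for Cry2, with a median of 0.30. Over 6 hearts, without wild-type 2 and knockout 2, the r ran from -0.44 to 0.86 with a median of 0.25, and that of Csnk1d was -0.19. Cry2 and Hlf had an r with Dbp of 0.96 and 0.94 over 8 hearts, and 0.86 and 0.77 over 6. The ubiquitin protease Usp2 and the ligase subunit Btrc had 0.87 and 0.91, which became 0.53 and 0.61, while Cry1 went from 0.71 to 0.21 and Nono, an RNA-binding partner of the PER proteins, from -0.75 to 0.40. Bhlhe40 went from -0.59 to 0.31, and Nfil3 had -0.39 and -0.40. Usp2, Btrc, Csnk1d and Nono are named after their values were seen. Clock had an r of 0.67 with Arntl and -0.47 with Dbp over 8 hearts, and 0.73 and -0.23 over 6.

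Genes outside the loop that follow the clock in heart or answer to hormones and temperature were counted from fixed lists. Of 16 clock-linked heart genes 0 passed in edgeR's test, where 0.0312% of tested genes did. Their median log2 fold change was 0.15, with 12 positive and 4 negative, where 47.1% of tested genes were positive and 52.9% negative. At an unadjusted p under 0.05 there was 1, Pdk4 at -1.10 (SE 0.44), against 0.904% of tested genes. Klf15, a rhythmic regulator of cardiac metabolism and repolarisation, had 0.19 (SE 0.56), and its target Kcnip2, a potassium channel subunit, had 0.027 with 0.65. Wee1, a cell cycle kinase driven by E-boxes, had 0.49 (SE 0.31). Of 8 glucocorticoid-induced genes 0 passed, with a median of 0.25, 6 positive and 2 negative, and 1 at an unadjusted p under 0.05 (Ddit4). Of 8 temperature-linked genes 0 passed, with a median of -0.16, 1 positive and 7 negative, and 1 at an unadjusted p under 0.05 (Hspa1a). These counts stand against the same 0.0312%, 47.1% and 0.904% of tested genes, so nothing is called particular to the lists. Pdk4, Ddit4 and Hspa1a are named after their values were seen. DESeq2 called 0 genes of each of these lists.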

How the data were processed

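The authors deposited 1 table with, per the file headers, estimated counts, TPM and FPKM for each heart. Per the submitters' processing notes HISAT, Bowtie2 and the build GRCm39 were used, without versions or roles; how reads were counted is not stated there. Per the labels' protocols, libraries were polyA-selected, strand-specific and paired-end. The deposited FPKM entered no result, and 8 further per-sample columns, all empty, were not used. Between 4.32% and 5.89% of a library's counts were not whole, and counts were rounded.

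Of 17190 genes, edgeR's filterByExpr (minimum count 10, minimum total 15) kept 12826. Libraries were scaled by TMM and fitted with the robust quasi-likelihood F-test of edgeR 4.0.16 (R 4.3.3), with Benjamini-Hochberg adjustment and a threshold of 0.05. DESeq2 1.42.0 was an alternative. Standard errors (SE) come from the F statistic, as log2 fold change over its square root. Log2 CPM used a prior count of 2, and ratios added 0.5 to each count. Library totals of 9065553 to 13492957 and 4 hearts per group limit the precision, with a biological coefficient of variation of 43.7%.

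The members and gene lists were chosen with earlier results of these data known. Named were all 10 members, 8 further clock genes, genes overlapping a member, and the genes most like Dbp and Arntl within genotype; other list genes named (Usp2, Btrc, Csnk1d, Nono, Pdk4, Klf15, Kcnip2, Wee1, Ddit4, Hspa1a) were chosen after their values were seen. Alternatives changed scaling, filter, test and libraries. RefSeq sequences are of GRCm38.p6, another build than the authors', and serve only as sequences. Replicate numbers 2 and 4 occur in both genotypes, and nothing in the labels ties them.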

Additional observations from a re-analysis of the deposited data

Results flagged for a closer look

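Npas2 in knockout 4, at 5.18 CPM, stood far above the other knockout hearts, which lay at 2.89, 2.94 and 3.10 CPM. It was the only one of 38 groups of 4 hearts (10 gene levels and 9 ratios to Arntl in each genotype) in which the highest or lowest heart lay this far from its neighbour, and chance alone gives about 1 in 20.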

How the results depend on the processing

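The log2 fold changes of the 10 genes kept their sign and moved by less than 1 SD between hearts in all 160 alternative values. The differences in ratios to Arntl did so in all 96. This margin is wide and does not show that the values are stable. The log2 fold change of Nr1d1, 0.31, stayed within it at 0.031 without wild-type 2, wild-type 6 and knockout 2. Leaving out 1 heart still moved the values of Nr1d1, Nr1d2, Per1, Per2, Per3 and Tef by over 1.5 times, as given with each gene. For Dbp, leaving out 1 heart gave ratio differences from 1.56 to 2.53. The number of genes called over the whole table was 4, and it was 1 with the strict filter, 8 with DESeq2 and 2 to 3 when 1 heart was left out (2 without wild-type 4 or wild-type 5). With the replicate number as a block, which leaves 1 residual degree of freedom, 168 of the 12826 tested genes were called. Only numbers 2 and 4 occur in both genotypes. The genotype difference in this fit therefore rests on wild-type 2 and 4 and knockout 2 and 4, and not on all hearts. Among the genes called were Dbp (1.36, edgeR adjusted p = 0.00497) and Ciart (1.38, edgeR adjusted p = 0.0424). Both were chosen on this same contrast, so these values are a description. The deviations of same-numbered hearts correlated at 0.91 for number 2, the highest of all pairs across genotypes, and at 0.11 for number 4. Wild-type 4 and knockout 1 had 0.69, and wild-type 5 and knockout 4 had 0.61. The labels tie same-numbered hearts by nothing but the number, and whether they share more was not tested. The cause of the larger count was not tested either. The wider clock list had 0 genes called in every alternative, with a median from 0.040 to 0.21 when 1 heart was left out. Of the 9 correlations with Arntl, 0 passed, also in every fit without 1 heart (0 pairs), but with total-count scaling 1 did, Npas2 at 0.92 (exact permutation, adjusted p = 0.0312). The r with Nr1d1 changed sign with total-count scaling (0.19), without knockout 2 (0.0049) and without wild-type 2 and knockout 2 (0.12), and that with Per1 with Spearman's rho (0.071), total-count scaling (0.26), without knockout 2 (0.026) and without wild-type 2 and knockout 2 (0.48). Without 1 heart these ran from -0.37 to 0.0049 and from -0.40 to 0.026. The cause was not tested. Low reads limit Npas2 and Ciart most, with 22 to 98 and 25 to 209 per library.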

Other observations

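The genes whose course within genotype was most like that of Dbp over 8 hearts, of 12431 compared, were Pbld2, Ift172, Ppp6r2, Espn and Ccny, with a Pearson r from 0.96 to 0.97, which was from 0.86 to 0.93 over 6 hearts without wild-type 2 and knockout 2. The lowest were Osr1 at -0.99, Cenpo at -0.98, Naalad2 at -0.98, Tex30 at -0.98 and Cnr2 at -0.97. Most like Arntl were Sema5a at 0.96, Dph6 at 0.91, Ppfibp1 at 0.90, Prnd at 0.90 and Eif2s3y at 0.89. Tef, at 0.98, was closer to Dbp than any of the 12431. With 8 hearts and so many genes, values of this size are a ranking and carry no test.

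Among the glucocorticoid-induced genes Ddit4, a stress-regulated inhibitor of mTORC1, was the one whose groups did not overlap, with 27.9, 36.5, 28.7 and 14.6 CPM in wild-type 2, 4, 5 and 6 and 38.8, 37.1, 38.7 and 63.9 CPM in knockout 1, 2, 3 and 4. Over all tested genes 0.632% did not overlap, and Ddit4 was singled out after its values were seen. Its log2 fold change was 0.73 (SE 0.31, edgeR adjusted p = 0.99998). Among the temperature-linked genes the heat shock gene Hspa1a had -1.18 (SE 0.48, edgeR adjusted p = 0.99998).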
